A study of Arabidopsis thaliana with 12 samples.

Results

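A set of 96 Arabidopsis thaliana genes had higher transcript levels in the mutant amp1-13 than in wild type in both media used, on every array. The genes were found among the 16552 genes that had an array row (probe set) annotated with exactly 1 gene, each represented by its row with the highest mean. In each medium a gap was taken as the lowest of the 3 amp1-13 arrays minus the highest of the 3 wild-type arrays, on the log2 scale, and the smaller of both gaps was the score. Of the 100 highest scores, 4 belonged to genes that the rule leaves out, AT4G15700, AT4G15680, AT4G15670 and SCPL34. The members were thus chosen by the measured difference between the genotypes, which is described below without a test.

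The samples were whole seedlings of the Col-0 ecotype, 10 days old and kept in liquid culture, in 4 groups of 3 arrays. They were amp1-13 with 30 µM hyperphyllin, wild type with 30 µM hyperphyllin, amp1-13 with the solvent DMSO alone, and wild type with DMSO alone. The medium of all 4 groups held 1% DMSO, and amp1-13 is a single mutant allele. The labels call the 3 samples of a group biological replicates and do not say whether their seedlings were grown separately.

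The AMP1 protein resembles carboxypeptidases and sits in the endoplasmic reticulum. Plants without it form leaves faster, have an enlarged shoot meristem and contain more cytokinin, and AMP1 is known to act in the repression of translation by microRNAs. Hyperphyllin is a synthetic compound that gives wild-type seedlings amp1-like traits. The level of the AMP1 transcript was not used here, and the genotype labels were taken as given. A gene of a list is called measured here only if it had a row annotated with exactly 1 gene. Of the lists of tissue markers, 3 of 8 leaf genes, 2 of 7 root hair genes, 1 of 7 root genes and 0 of 7 seed genes were measured in this sense. The leaf gene RCA, the rubisco activase, ran from 10.6 to 10.9 (log2) over the 12 arrays. The root gene PYK10, a beta-glucosidase, ran from 11.5 to 11.8. Both were thus bright on every array, but how much RNA each organ gave cannot be read from 1 gene.

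Array 1 of wild type in DMSO stood apart from its group. Over all rows with a gene, it correlated on average at 0.973 with arrays 2 and 3 of wild type in DMSO and at 0.987 with the 9 arrays outside the group. The median level of the 96 members on it was 6.04, while it was 5.33 and 5.46 on arrays 2 and 3 of wild type in DMSO. It was the highest wild-type array in DMSO for 83 of the 96 members (86.5%) and for 39.9% of all genes, so for most members it set the gap in DMSO. The main counts that rest on this group are therefore also given without array 1. That leaves arrays 2 and 3 of wild type in DMSO. They correlated on average at 0.977 and 0.975 with the 9 arrays outside the group. For every other array, array 1 included, the mean correlation with arrays outside its own group was 0.983 to 0.988. Which of the 3 arrays is typical of the group cannot be told, so the values without array 1 are not taken as more accurate.

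Over the 96 members, the median level was 6.40, 6.34 and 6.22 on the 3 amp1-13 arrays with hyperphyllin, against 5.73, 5.73 and 5.68 on the wild-type arrays with hyperphyllin. In DMSO it was 6.34, 6.36 and 6.36 on the amp1-13 arrays, against the 3 wild-type values given above. The amp1-13 arrays thus lay within a narrow band in both media, and the wild-type arrays in DMSO held both the lowest values and the one nearest to amp1-13. The array medians over all 16552 genes lay between 4.11 and 4.16.

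**Figure D1:**
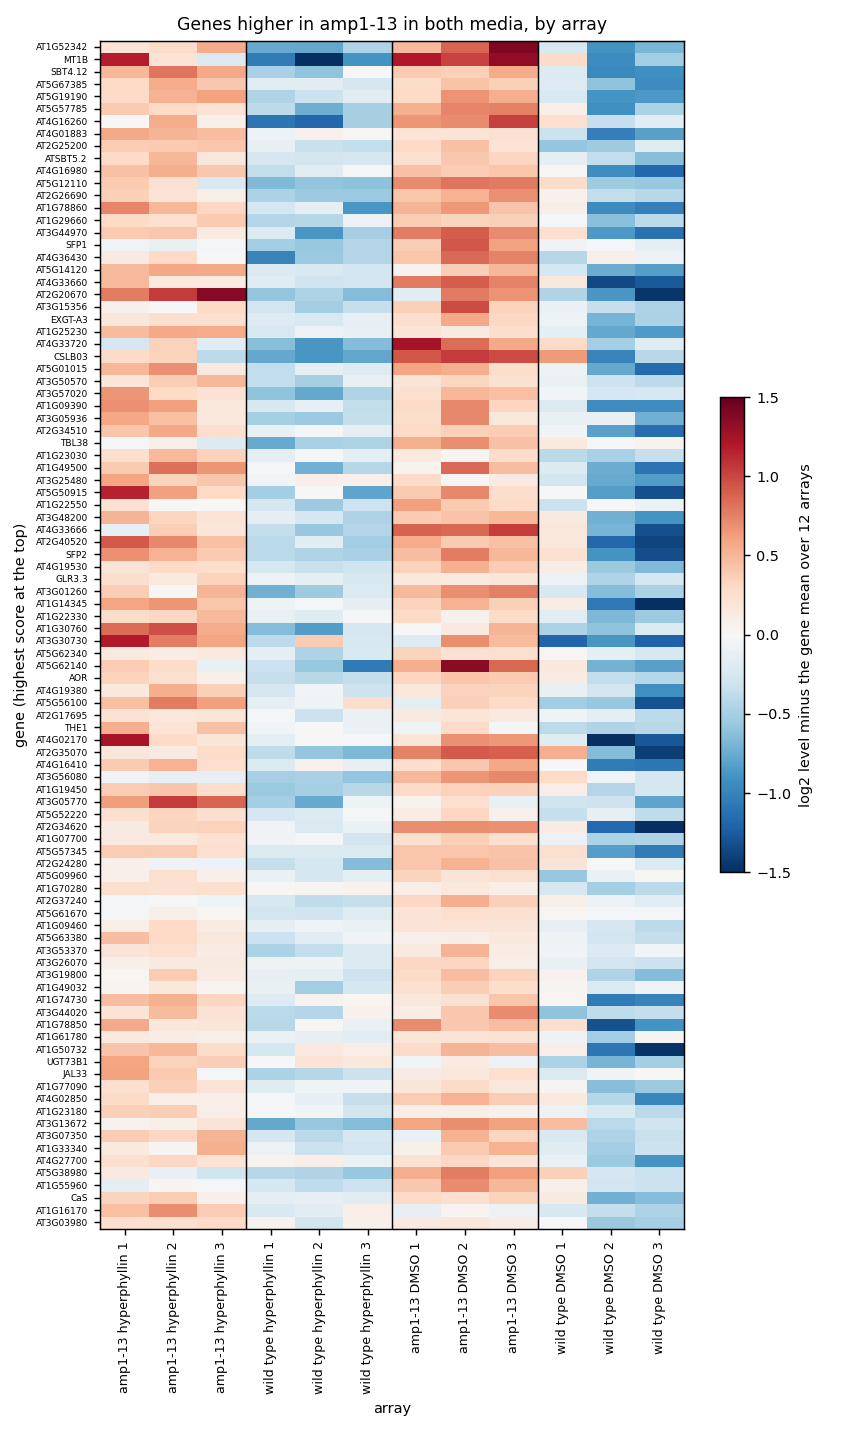
Level of each of the 96 members (rows, highest score at the top) on each of the 12 arrays (columns), as the log2 level minus that gene's mean over the 12 arrays. The 6 amp1-13 columns are redder than the wild-type columns of the same medium in every row, which is how the genes were chosen, and array 1 of wild type in DMSO is paler than arrays 2 and 3.

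The difference of the group means had a median of 0.56 (log2) over the members in hyperphyllin, with a range from 0.20 to 1.63. In DMSO the median was 0.76 and the range 0.24 to 1.63. Differences of at least 1, which is a doubling, were reached by 9 members in hyperphyllin, by 31 in DMSO and by 6 in both. For 19 members the difference was larger in hyperphyllin, and for the other 77 (80.2%) it was larger in DMSO. Over all genes the difference was larger in DMSO for 42.8%, at least 1 in DMSO for 0.852% and at least 1 in both media for 0.0846%. The members were chosen on these differences. Without array 1 of wild type the median in DMSO was 0.93, and against array 1 alone it was 0.41. Without that array 42 members reached 1 in DMSO (1.81% of all genes did) and 7 in both media (0.121% of all genes). The difference was then larger in hyperphyllin for 17 members and in DMSO for 79, against 43.2% of all genes larger in DMSO.

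Non-overlap of this kind was not rare. In hyperphyllin all 3 amp1-13 arrays lay above all 3 wild-type arrays for 11.4% of the 16552 genes, in DMSO for 6.97%, and in both for 320 genes (1.93%), while the reverse order held in both media for 239 genes (1.44%). The members are the top of those 320 genes. For 61 of them all 6 amp1-13 arrays also lay above all 6 wild-type arrays whatever the medium, as they did for 145 genes in all (0.876%). With array 1 of wild type in DMSO left out this held for 80 members and for 441 genes in all (2.66%). At the threshold, CaS, AT1G16170 and AT3G03980 were the lowest members, with scores of 0.119, 0.118 and 0.118, and AT5G03120, AT5G28500 and AT2G28510 fell just outside, at 0.113, 0.113 and 0.110.

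**Figure D2:**
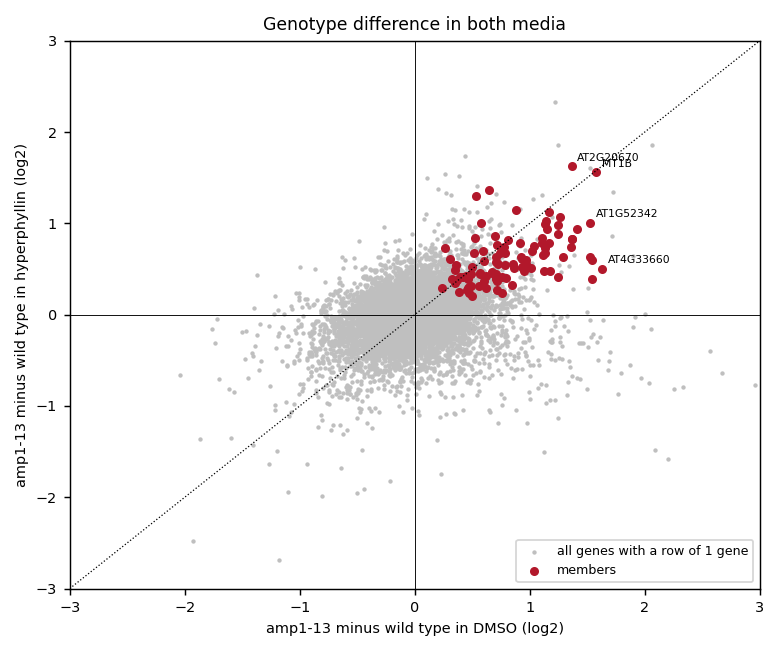
Difference of the mean log2 levels, amp1-13 minus wild type, in DMSO (horizontal) and in hyperphyllin (vertical). The 96 members (red) all lie above 0 on both axes, and 77 of them lie below the dotted line of equal differences; the other genes with a row of 1 gene are grey.

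Most members carried a locus code only, and no role is given for those. A symbol was available for 14 members, and the gene table listed a family name for 2 more, AT2G26690 (NPF6.2) and AT3G13672 (SINA2). These 16 genes covered proteases, transporters, cell wall enzymes, receptors and channels, and enzymes of detoxification. They are described in that order after the 2 members with the highest scores. Their relatives were found by symbol or synonym only. The family counts below thus leave out genes listed by locus code alone, and such genes, members included, may belong to a family.

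Among the members the highest score, 0.674, belonged to AT1G52342, a gene with no further name. The left-out gene AT4G15700 scored higher, at 1.03. AT1G52342 is described first. It stood at 4.40, 4.47 and 4.75 in amp1-13 with hyperphyllin, against 3.44, 3.43 and 3.73 in wild type with hyperphyllin. In DMSO it stood at 4.68, 5.07 and 5.60 in amp1-13, against 3.95, 3.30 and 3.51 in wild type. Both groups were separated by about 0.7 in each medium, although the gene was dim, with a mean of 4.19 near the array medians.

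MT1B, a metallothionein gene whose family encodes small cysteine-rich proteins that bind metals, had the second score among the members. Its levels were 5.68, 4.71 and 4.28 in amp1-13 with hyperphyllin, against 3.46, 2.92 and 3.61 in wild type with hyperphyllin. In DMSO they were 5.71, 5.52 and 5.83 in amp1-13, against 4.79, 3.56 and 3.98 in wild type. The mean difference was 1.56 in hyperphyllin and 1.58 in DMSO, the second largest among the members in each medium. MT1C, the other measured gene with a metallothionein name, was 0.50 higher in amp1-13 in hyperphyllin and at -0.87 in DMSO, with overlapping arrays in both.

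The subtilases are serine proteases, many of them secreted, and 2 of the 10 measured under a subtilase name were members. SBT4.12 stood at 8.29, 8.60 and 8.37 in amp1-13 with hyperphyllin, against 7.31, 7.19 and 7.79 in wild type with hyperphyllin. With DMSO alone, its levels were 8.19, 8.15 and 8.35 in amp1-13, against 7.59, 6.83 and 6.87 in wild type. The amp1-13 arrays lay above 8.1 throughout and the wild-type arrays below 7.8. ATSBT5.2 was dimmer and its arrays closer together, with 5.61, 5.82 and 5.49 in amp1-13 with hyperphyllin, against 5.06, 5.04 and 5.07 in wild type with hyperphyllin. In DMSO its levels were 5.56, 5.72 and 5.64 in amp1-13, against 5.18, 4.95 and 4.68 in wild type. Of the other 8 subtilase genes, 1 had a higher mean in amp1-13 in both media and 4 a lower one, and none of the 8 separated the genotypes in both media.

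SFP1 and SFP2 are directly adjacent genes of sugar transporter-like proteins of the ERD6-like group. SFP1 stood at 8.95, 8.88 and 8.97 in amp1-13 with hyperphyllin, against 8.48, 8.42 and 8.54 in wild type with hyperphyllin. In DMSO it stood at 9.36, 9.92 and 9.59 in amp1-13, against 8.94, 8.96 and 8.84 in wild type. SFP1 thus separated the genotypes in each medium, yet amp1-13 with hyperphyllin was level with wild type in DMSO. SFP2 was at 6.79, 6.62 and 6.49 in amp1-13 with hyperphyllin, against 5.70, 5.65 and 5.62 in wild type with hyperphyllin. In DMSO it was at 6.57, 6.87 and 6.61 in amp1-13, against 6.34, 5.21 and 4.78 in wild type. Array 1 of wild type in DMSO carried the 6.34, only 0.23 below the lowest amp1-13 array. The genes are close copies, and how far the array separates their transcripts was not determined.

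NPF6.2 (AT2G26690) belongs to the NRT1/PTR family, whose members carry nitrate, peptides and other small solutes. Its levels were 9.28, 9.12 and 9.01 in amp1-13 with hyperphyllin, against 8.44, 8.37 and 8.36 in wild type with hyperphyllin. In DMSO they were 9.33, 9.44 and 9.60 in amp1-13, against 8.98, 8.56 and 8.49 in wild type. It was among the brightest members, with a mean difference of 0.74 in hyperphyllin and 0.78 in DMSO. Of the other 12 measured genes that carried a name of the family, 4 were higher in amp1-13 in both media and 5 lower. Among these 12, 2 separated the genotypes in both, AT3G21670 and the glucosinolate transporter gene GTR2, with scores below those of the members.

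The cell wall enzymes among the members act on different polymers. EXGT-A3 (XTH27) is a xyloglucan endotransglucosylase, an enzyme that cuts and rejoins xyloglucan chains. It stood at 9.15, 9.23 and 9.24 in amp1-13 with hyperphyllin, against 8.80, 8.76 and 8.86 in wild type with hyperphyllin. With DMSO alone, its levels were 9.24, 9.55 and 9.30 in amp1-13, against 8.91, 8.28 and 8.51 in wild type. Both amp1-13 groups lay above every wild-type array. Of 9 named relatives measured, 4 had higher means in amp1-13 in both media and 2 lower. XTH16 and XTH32 were among the 4, higher by 0.62 and 0.39 in hyperphyllin and by 0.89 and 0.96 in DMSO. Their arrays overlapped in DMSO.

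CSLB03 is a cellulose synthase-like gene and was the only measured gene named for its subgroup. It stood at 5.08, 5.13 and 4.40 in amp1-13 with hyperphyllin, against 4.03, 3.92 and 4.02 in wild type with hyperphyllin. In DMSO it stood at 5.72, 5.85 and 5.78 in amp1-13, against 5.43, 3.80 and 4.37 in wild type. The wild-type arrays in DMSO spread over more than 1.6, with array 1 at the top.

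TBL38 belongs to the trichome birefringence-like family, of which several members acetylate wall polysaccharides. Its levels were 7.23, 7.36 and 7.06 in amp1-13 with hyperphyllin, against 6.51, 6.78 and 6.80 in wild type with hyperphyllin. In DMSO they were 7.80, 7.96 and 7.70 in amp1-13, against 7.41, 7.23 and 7.32 in wild type. The distance between the genotypes was 0.52 in hyperphyllin and 0.50 in DMSO. Among the other 23 measured genes named for the family, 4 had higher means in amp1-13 in both media and 7 had lower means in both. None of the 23 separated the genotypes in both.

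THE1 encodes THESEUS1, a receptor kinase that monitors the integrity of the cell wall during growth. It stood at 8.14, 7.81 and 8.04 in amp1-13 with hyperphyllin, against 7.56, 7.61 and 7.51 in wild type with hyperphyllin. With DMSO alone, its levels were 7.54, 7.88 and 7.59 in amp1-13, against 7.21, 7.15 and 7.19 in wild type. Here array 1 of wild type lay with arrays 2 and 3, so the separation in DMSO did not hinge on it.

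GLR3.3 is a glutamate receptor-like channel that takes part in wound signalling. Its levels were 5.85, 5.73 and 5.93 in amp1-13 with hyperphyllin, against 5.50, 5.44 and 5.34 in wild type with hyperphyllin. In DMSO they were 5.74, 5.73 and 5.77 in amp1-13, against 5.50, 5.14 and 5.34 in wild type. The gap was 0.23 in both media. Of the 9 named relatives measured, 2 had higher means in amp1-13 in both media and 5 lower, and none separated the genotypes in both.

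CaS, a calcium-sensing protein of the thylakoid membrane, stood at 7.86, 7.91 and 7.61 in amp1-13 with hyperphyllin, against 7.40, 7.41 and 7.37 in wild type with hyperphyllin. In DMSO it stood at 7.83, 7.79 and 7.87 in amp1-13, against 7.67, 6.81 and 6.88 in wild type. Its gap in DMSO, 0.12, was set by array 1 of wild type and placed it near the threshold. SINA2 (AT3G13672), named after a fly ubiquitin ligase family, was at 5.08, 5.11 and 5.22 in amp1-13 with hyperphyllin, against 4.26, 4.46 and 4.38 in wild type with hyperphyllin. In DMSO it was at 5.62, 5.73 and 5.63 in amp1-13, against 5.49, 4.62 and 4.73 in wild type, again with array 1 closest to amp1-13.

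Enzymes of detoxification were represented by AOR, an oxidoreductase of reactive carbonyls, and UGT73B1, a glycosyltransferase of small molecules. AOR stood at 8.20, 8.11 and 7.95 in amp1-13 with hyperphyllin, against 7.52, 7.46 and 7.52 in wild type with hyperphyllin. With DMSO alone, its levels were 8.19, 8.29 and 8.27 in amp1-13, against 7.99, 7.50 and 7.44 in wild type. UGT73B1 stood at 6.61, 6.36 and 6.39 in amp1-13 with hyperphyllin, against 6.02, 6.22 and 6.17 in wild type with hyperphyllin.

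In DMSO UGT73B1 was at 5.98, 6.14 and 5.93 in amp1-13, against 5.55, 5.31 and 5.51 in wild type. It was the one member whose mean in wild type with hyperphyllin lay above that of amp1-13 in DMSO. None of the 9 other genes with a UGT73 name had a higher mean in amp1-13 in both media, while 6 had a lower one. UGT73B2 was lower without overlap in both. JAL33, a jacalin-related lectin gene, was the dimmest member with a symbol, at 2.85, 2.64 and 2.22 in amp1-13 with hyperphyllin, against 1.77, 1.82 and 1.93 in wild type with hyperphyllin. In DMSO it was at 2.37, 2.41 and 2.50 in amp1-13, against 2.04, 2.20 and 2.24 in wild type.

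**Figure D3:**
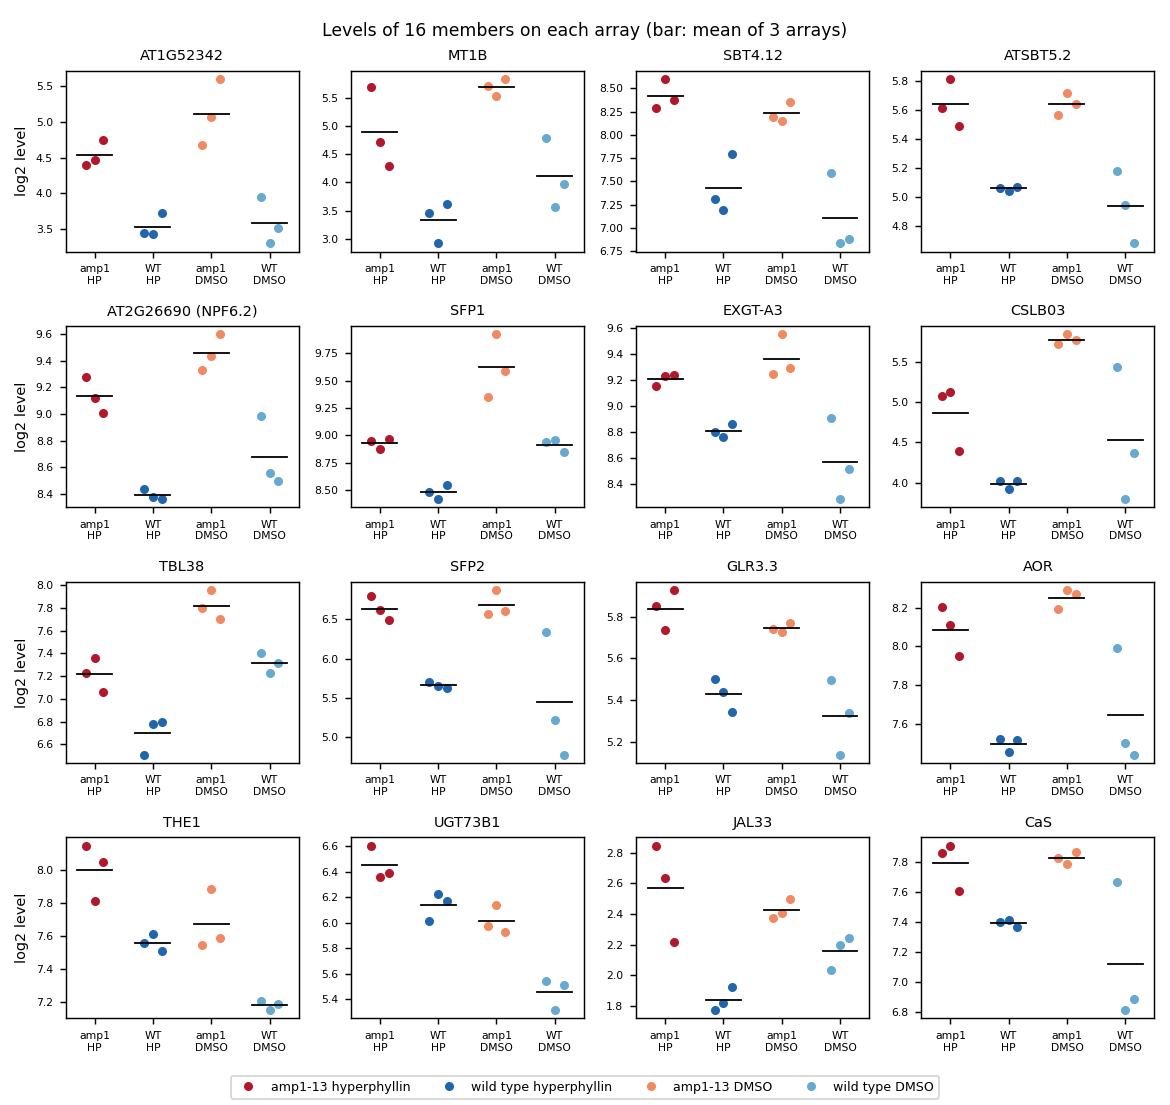
Log2 level on each array (points) and group mean of 3 arrays (bars) for 16 members: 14 with a symbol, NPF6.2 (AT2G26690) and the highest score, AT1G52342; each panel has its own axis. In each panel the amp1-13 points lie above the wild-type points of the same medium, and in CSLB03, SFP2 and CaS 1 wild-type point in DMSO (array 1) lies close to amp1-13.

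Among the members with a locus code only, AT2G20670 had the largest difference in hyperphyllin, 1.63, and AT4G33660 the largest in DMSO, also 1.63; these 2 were picked for their values. AT2G20670 was at 8.04, 8.32 and 8.63 in amp1-13 with hyperphyllin, against 6.68, 6.81 and 6.62 in wild type with hyperphyllin, and its gap there was 1.23. In DMSO it was at 7.11, 8.05 and 7.94 in amp1-13, against 6.82, 6.39 and 5.80 in wild type. The other high scores, AT5G67385, AT5G19190, AT5G57785, AT4G16260, AT4G01883, AT2G25200, AT4G16980, AT5G12110, AT1G78860 and AT1G29660, had mean differences from 0.52 (AT4G01883) to 1.14 (AT4G16260) in hyperphyllin and from 0.71 (AT1G29660) to 1.17 (AT5G19190) in DMSO.

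The members were spread over all 5 nuclear chromosomes, with 29 genes on chromosome 1, 12 on 2, 19 on 3, 14 on 4 and 22 on 5. The share of a chromosome's measured genes that were members ran from 0.473% on chromosome 2 to 0.678% on chromosome 1, and none of the 63 measured genes of the chloroplast genome was a member. Directly adjacent protein-coding genes made up 3 pairs, AT1G78850 with AT1G78860, AT4G33660 with AT4G33666, and SFP1 with SFP2. A further 2 pairs lay near each other, AT4G33666 and AT4G33720 with 5 protein-coding genes between them and AT1G09390 and AT1G09460 with 7. A reverse score took the lowest wild-type array minus the highest amp1-13 array, and again the smaller value of both media. The 96 genes highest in it, all lower in amp1-13 in both media, held 2 such pairs, with 7 and 5 genes between, and 0 adjacent ones. No gene was left out of that set by name, unlike for the members, so the sets are not fully alike.

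AT4G33660, AT4G33666 and AT4G33720 are the closest run of 3 members on a chromosome. AT4G33660 was at 6.58, 6.25 and 6.23 in amp1-13 with hyperphyllin, against 5.92, 5.80 and 5.83 in wild type with hyperphyllin, and at 6.88, 7.01 and 6.85 in amp1-13 with DMSO, against 6.27, 4.75 and 4.84 in wild type with DMSO. AT4G33666 was at 5.09, 5.59 and 5.39 in amp1-13 with hyperphyllin, against 4.86, 4.65 and 4.78 in wild type with hyperphyllin, and at 6.10, 6.08 and 6.25 in amp1-13 with DMSO, against 5.39, 4.52 and 3.90 in wild type with DMSO. AT4G33720 was dim, between 1.46 and 3.59 on all arrays. For all 3 genes the difference between the genotypes was smaller in hyperphyllin (0.50, 0.60 and 0.70) than in DMSO (1.63, 1.54 and 1.02).

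The compound effect, hyperphyllin against DMSO within a genotype, was no contrast of the rule and was tested with limma, although on the same arrays. Over both genotypes together it passed for 12 of the 96 members (12.5%), 4 higher and 8 lower with hyperphyllin, against 1.76% of all 17504 rows tested (1.02% higher and 0.743% lower). At an unadjusted p under 0.05 the shares were 37.5% of the members and 16.6% of all rows. The count was between 4 and 7 when any of the 11 arrays other than array 1 of wild type in DMSO was left out, against 0.486% to 1.70% of all rows. It was 44 (29 higher, 15 lower) without that array, against 13.7% of all rows. The members' within-group spread was somewhat larger than that of all genes, with a median SD of 0.216 against 0.174, and 85.4% of them had a mean level of at least 4, against 51.4% of all genes. Among rows of at least that level, 18 of 82 members passed (22.0%), against 4.38% of all such rows.

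TBL38 was the member with the lowest adjusted p. It changed by -0.61 ± 0.08 with hyperphyllin over both genotypes (log2, SE, limma adjusted p = 0.00464), from effects of -0.60 ± 0.12 in amp1-13 and -0.62 ± 0.12 in wild type, each over 3 arrays per group. Its arrays with hyperphyllin lay below those with DMSO in both genotypes. SFP1 changed by -0.56 ± 0.09 (adjusted p = 0.0111), with -0.69 ± 0.13 in amp1-13 and -0.43 ± 0.13 in wild type. AT3G56080 changed by -0.63 ± 0.09 (adjusted p = 0.00663), its levels being 5.11, 5.04 and 5.04 in amp1-13 with hyperphyllin, against 5.66, 5.82 and 5.89 in amp1-13 with DMSO, and 4.66, 4.68 and 4.57 in wild type with hyperphyllin, against 5.47, 5.13 and 4.91 in wild type with DMSO.

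UGT73B1 rose with hyperphyllin by 0.56 ± 0.08 over both genotypes (limma adjusted p = 0.00575), by 0.44 ± 0.11 in amp1-13 and by 0.68 ± 0.11 in wild type. TBL38, SFP1, AT3G56080 and UGT73B1 passed over both genotypes under each of the 19 alternatives, with each of the 12 arrays left out among them. The 8 other genes that passed lost the call under at least 11 alternatives each, and kept it without array 1 of wild type in DMSO. They were AT4G33720 (-0.75), AT4G16260 (-0.71), AT5G38980 (-0.57), AT2G24280 (-0.45) and AT2G37240 (-0.35), which were lower, and AT4G01883 (0.51), AT3G25480 (0.48) and AT1G16170 (0.41), which were higher. THE1 was 0.35 ± 0.08 higher with an adjusted p of 0.0553 and MT1B was at -0.79 ± 0.25 (adjusted p = 0.139), and neither passed. Without array 1 of wild type in DMSO THE1 passed (adjusted p = 0.017).

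SFP1 and its neighbour SFP2 had unlike compound effects, as SFP2 was at 0.08 ± 0.21 over both genotypes (limma adjusted p = 0.884); the difference between the genes was not tested. NPF6.2 (AT2G26690) was at -0.31 ± 0.09 (adjusted p = 0.132), and SINA2 (AT3G13672) at -0.55 ± 0.13 (adjusted p = 0.0549). Both had arrays with hyperphyllin below those with DMSO in each genotype. The compound effects of SBT4.12 (0.26 ± 0.14), ATSBT5.2 (0.06 ± 0.09), EXGT-A3 (0.04 ± 0.10) and GLR3.3 (0.10 ± 0.08) did not pass. SBT4.12 did pass without array 1 of wild type in DMSO (0.38, limma adjusted p = 0.0393).

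Arrays with hyperphyllin lay below those with DMSO in both genotypes for 13 members (13.5%), against 1.55% of all genes, and above them in both genotypes for 6 (6.25%), against 1.65%. The 6 were AT4G01883, AT3G25480, AT5G56100, AT1G70280, UGT73B1 and AT1G16170. In amp1-13 alone 32 members (33.3%) lay lower without overlap, against 8.68% of all genes, and 12 (12.5%) higher, against 8.16%. In wild type 15 members (15.6%) lay lower, against 10.9%, and 11 (11.5%) higher, against 8.76%. The wild-type counts without array 1 in DMSO were 16 lower (16.7%), against 25.1% of all genes, and 50 higher (52.1%), against 17.8%, so both the counts and their order depended on that array. These arrays are the ones the rule used, and the counts are given as a description.

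**Figure D4:**
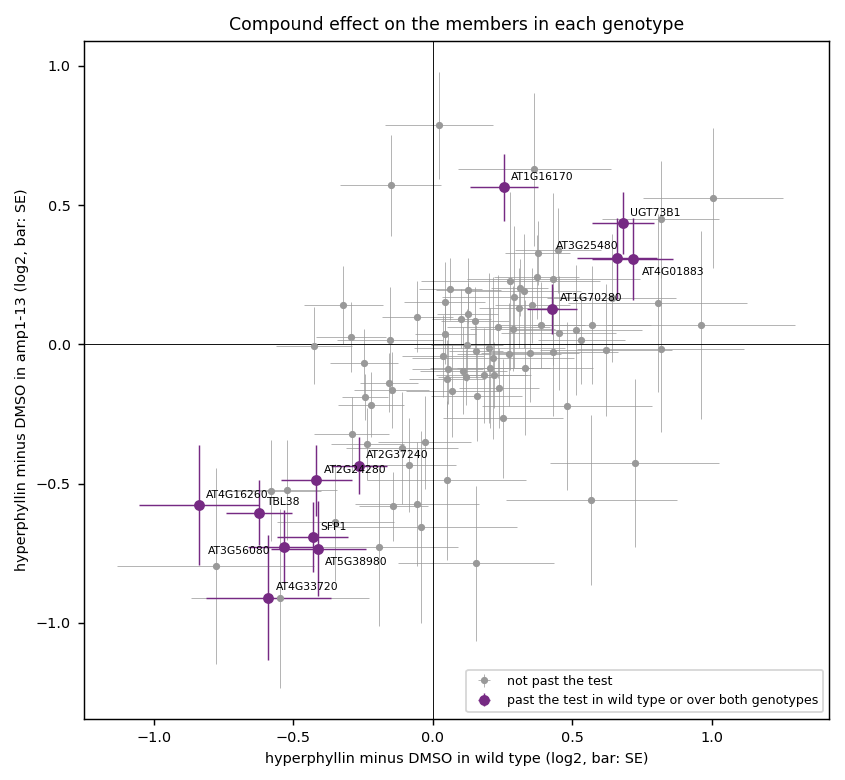
Effect of hyperphyllin (log2 difference from DMSO, with SE bars) on each of the 96 members in wild type (horizontal) and in amp1-13 (vertical). The 13 members that passed in wild type or over both genotypes are purple and named. All 13 have the same sign in both genotypes. Of these, 12 passed on the mean of both effects, which favours genes with a shared sign.

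In wild type alone, the compound effect passed for 5 members (5.21%), against 1.64% of all rows tested (1.16% higher and 0.48% lower). The groups compared here, and those compared within amp1-13 below, were also used by the rule. The counts within 1 genotype and their directions are thus not independent of how the members were chosen. UGT73B1 (adjusted p = 0.0154), AT4G01883 (0.72 ± 0.15, adjusted p = 0.0357), AT3G25480 (0.66 ± 0.14, adjusted p = 0.0451) and AT1G70280 (0.43 ± 0.09, limma adjusted p = 0.0386) rose, and TBL38 fell (adjusted p = 0.0271). Without array 1 of wild type in DMSO the count was 38, 35 higher and 3 lower, against 14.0% of all rows. The share of all rows moved as well, between 0.131% and 2.43% with any of the other 11 arrays left out. The members' count was 0 without DMSO array 2 and without hyperphyllin arrays 2 and 3 of wild type, 1 without hyperphyllin array 1 of wild type, 2 without DMSO array 3 of either genotype or without array 2 or 3 of amp1-13 in hyperphyllin, and 4 to 6 without the other 3 arrays. None of the 5 calls held under every alternative. Among rows with a mean level of at least 4, 6 of 82 members passed in wild type (7.32%), against 4.31% of all such rows.

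In amp1-13 alone, limma called 0 of the 96 members, against 0.0171% of all rows (0.0114% higher and 0.00571% lower), while 28 members (29.2%) and 7.17% of all rows had an unadjusted p under 0.05. With array weights 6 members passed, 1 higher and 5 lower, against 0.583% of all rows. With another variance prior 1 passed, lower, against 0.183%. Without array 1 of wild type in DMSO, which enters here through the estimate of the spread only, 7 passed, all lower, against 0.788%. The effects ran from -0.91 (CSLB03) to 0.79 (AT3G05770, picked for its value). AT4G33720 was also at -0.91 ± 0.22 (limma adjusted p = 0.228).

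The median compound effect over the members was -0.03 in amp1-13, against 0.00 over all rows, and 0.14 in wild type, against -0.05. In wild type 63 members had a higher mean with hyperphyllin (65.6%, against 40.5% of all genes) and 33 a lower one. In amp1-13 41 of the 96 members were higher and 55 lower, while 49.6% of all rows were higher. Because the difference between these effects equals the change of the genotype difference between media, which the rule used, it was not tested. In 62 members (64.6%) the mean of wild type with hyperphyllin lay between those of amp1-13 in DMSO and wild type in DMSO. This order, with amp1-13 in DMSO the highest, held for 13.1% of all genes. In 33 members the mean of wild type with hyperphyllin lay below wild type in DMSO, and in 1 above amp1-13 in DMSO. The rule fixed that amp1-13 lay above wild type in DMSO, so these positions are a description only. The median position was 21.0% of the way from wild type to amp1-13. When array 1 of wild type in DMSO was left out, 70 members had a higher mean with hyperphyllin (72.9%, against 42.7% of all genes). Then 69 lay between (71.9%, against 16.3% of all genes), and the median position was 33.5%. Without array 1 of wild type in DMSO the median effect in wild type was 0.28, and without array 3 it was 0.03.

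Other measures moved with these groups. The summed level of the 3 leaf markers was 11.89 to 11.97 (log2) in amp1-13 with hyperphyllin, 11.85 to 11.90 in wild type with hyperphyllin, 11.78 to 11.90 in amp1-13 with DMSO and 11.51 to 11.72 in wild type with DMSO. Of the rapid stress genes 2 of 10 were measured, STZ and PUB23, both of which rose with hyperphyllin in wild type (limma), and their summed level was 9.95 to 11.1 in amp1-13 with hyperphyllin, 10.9 to 11.1 in wild type with hyperphyllin, 9.69 to 11.4 in amp1-13 with DMSO and 8.42 to 9.55 in wild type with DMSO. Wild type in DMSO was the lowest group in both lists, and without overlap. The 2 root hair markers EXPA7 and EXP18 summed to 5.26 to 6.23 in amp1-13 with hyperphyllin, 5.56 to 6.12 in wild type with hyperphyllin, 6.02 to 6.24 in amp1-13 with DMSO and 5.68 to 7.30 in wild type with DMSO. Within wild type in DMSO the arrays were split. The middle and highest arrays, at 7.29 and 7.30, lay above every array of the other groups, and the lowest lay within their range. The 3 measured genes of 13 for low energy and branched-chain amino acid breakdown, MCCB, ETFQO and D2HGDH, summed to 8.63 to 8.72 in amp1-13 with hyperphyllin, 8.22 to 8.34 in wild type with hyperphyllin, 8.36 to 8.41 in amp1-13 with DMSO and 8.24 to 8.35 in wild type with DMSO. Their summed level thus lay higher in amp1-13 in both media, without overlap, though the nearest arrays in DMSO were almost level. The part of these differences in the members' levels was not tested, and in whole seedlings fewer cells of a type and less RNA per cell cannot be told apart. No member belonged to any of the 10 lists.

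The membership depended on array 1 of wild type in DMSO more than on any other array. Without it, 29 of the 96 members stayed among the 100 highest scores, and 864 genes had both gaps above 0 in place of 320. Leaving out any of the other 11 arrays kept between 73 and 88 members. With the difference of group medians in place of the gap, 31 members stayed. Every member kept its direction in both media in these comparisons of means, since a positive gap fixes it.

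**Figure D5:**
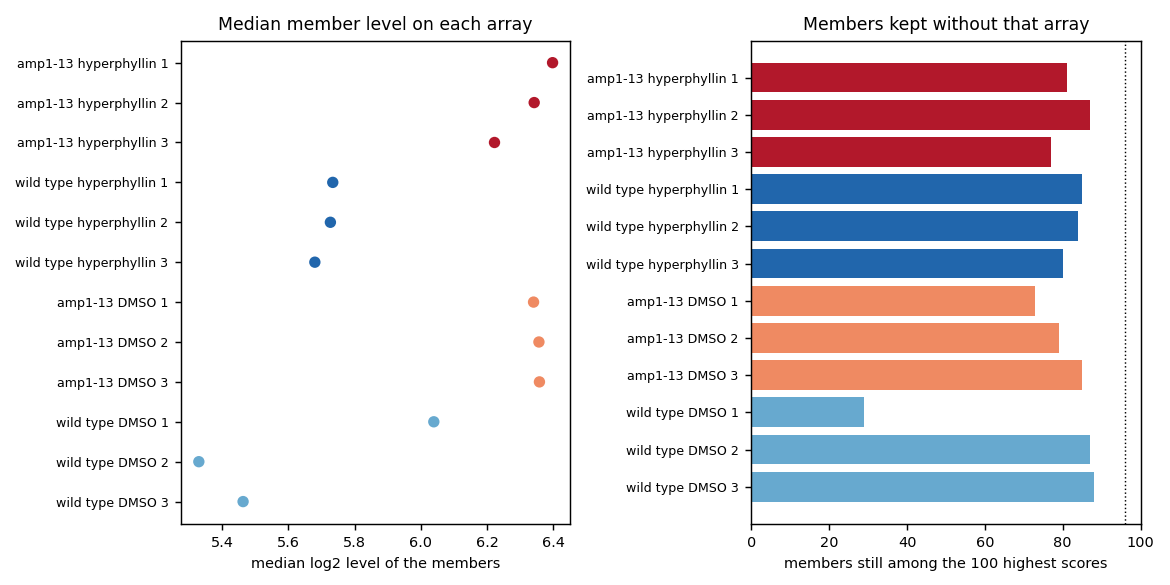
Left: median log2 level of the 96 members on each array. Right: how many of the 96 members (dotted line) stay among the 100 highest scores when that array is left out; the bar for array 1 of wild type in DMSO is at 29 and the others lie between 73 and 88.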

How the data were processed

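RNA of whole seedlings was hybridised to Affymetrix AraGene 1.1 ST arrays, with each of the 12 samples on its own array. The authors deposited log2 values, and per the submitters' processing notes RMA was used. Which software and which probe definitions they used is not given in the sources used here. The values ran from 0.593 to 12.7 with array medians from 4.05 to 4.18, so they were used as deposited. No scanner files were used here, so the signal over background is unknown, and the number of arrays limits the precision.

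Of 38408 probe sets (rows), 16746 carried exactly 1 gene in GEO's platform annotation, 758 carried several, and the rest were unnamed here. Names and gene order came from RefSeq's gene table (assembly TAIR10.1), in which all 96 members were found. No sequence table was used, so no sequences are shown. Groups and replicate numbers came from the sample titles.

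The 4 group means were estimated jointly from the 12 arrays for each of the 17504 rows with a gene (limma 3.58.1 under R 4.3.3, with lmFit and eBayes). Adjusted p-values are limma's with Benjamini-Hochberg adjustment over those rows, with a threshold of 0.05. The tests were tried first on simulated data with independent noise for each row and array. Those data held no array that stood apart, so they cannot show how the tests behave with such an array. The members were chosen on the genotype contrasts, so only the effect of hyperphyllin within a genotype, or its mean over both, was tested on them. Alternatives were other sets of rows, a filter on dim rows, quantile normalization, array weights, another variance prior, a replicate block and leaving out each array. The genes named were the 15 highest-scoring members, members with a symbol, members past a compound test, chromosomal neighbours and those beside the threshold. A few others were picked for their values, and the text marks them as such. The members, gene lists and tests were chosen with earlier results of these data known. Families of relatives were chosen after the members were seen, and hold only genes whose symbol or synonym gave the family name.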

Additional observations from a re-analysis of the deposited data

How the results depend on the processing

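With 3 arrays per group, most counts of members past the compound test moved with the processing. Over both genotypes the count of 12 (1.76% of all rows) was 4 with all probe sets tested (0.87%) and 42 with array weights (14.2%), and ran from 4 to 44 with each array left out (0.486% to 13.7%). In wild type the count of 5 (1.64%) was 1 with all probe sets (0.552%) and 38 with array weights (17.3%), and ran from 0 to 38 with each array left out (0.131% to 14.0%). In amp1-13 the count of 0 (0.0171%) was 6 with array weights (0.583%) and 1 with a trended robust prior (0.183%), and ran from 0 to 7 (0.0114% to 0.788%). The membership of 96 was kept by 31 genes with the difference of group medians and by 29 to 88 with each array left out; quantile normalization kept 87, all rows with 1 gene 94 and a mean level of at least 4 kept 82, which is the number of members above that level. No called effect of a single gene changed sign. With each array left out, the members' median compound effect ran from 0.03 to 0.28 in wild type (0.14 with all arrays), from -0.08 to 0.02 in amp1-13 (-0.03), where its sign turned, and from 0.02 to 0.12 over both genotypes (0.06). The arrays showed no clear pairing by replicate number, which does not exclude that same-numbered samples were handled together. Deviations of same-numbered arrays correlated from -0.281 to 0.295, and 4 of 18 pairs lay over 0.1. Of the 12 arrays, 5 correlated best with an array of their own number. With the number as a replicate block 3 members passed in wild type (1.08% of all rows), 0 in amp1-13 (0.0229%) and 9 over both genotypes (1.42%). Counts without array 1 of wild type in DMSO that use no test were added after seeing the data. Signal over background was not analysed here, and 14 members with means under 4 are dim.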

Other observations

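Rows annotated with several genes held a member in 4 cases, all with 2 genes. Their differences between amp1-13 and wild type ran from -0.08 to 0.12 (log2) in hyperphyllin and from 0.01 to 0.31 in DMSO, and none of the 4 separated the genotypes in both media. Which of the genes in such a row gives its signal cannot be read from the row.

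Among the gene lists that held no member, the type-A response regulators, which cytokinin induces, had 2 of 10 genes measured, ARR15 and ARR16. They were dim, with means of 2.58 and 3.05, and neither passed in any comparison. The ascorbate peroxidase gene TAPX was measured together with SAPX, and the summed level of both was 9.02 to 9.20 in amp1-13 with hyperphyllin, 9.04 to 9.12 in wild type with hyperphyllin, 9.03 to 9.12 in amp1-13 with DMSO and 8.48 to 8.54 in wild type with DMSO. The arrays of the genotypes thus overlapped in hyperphyllin and were apart in DMSO. The 3 unfolded protein response genes measured of 9 summed to 8.68 to 9.09 in amp1-13 with hyperphyllin, 8.62 to 8.75 in wild type with hyperphyllin, 8.91 to 9.52 in amp1-13 with DMSO and 8.70 to 8.80 in wild type with DMSO.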
